A study of Mus musculus with 11 samples.

Results

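The genes described here are 8 genes for which projection neurons of the striatum are known, namely Drd1, Drd2, Adora2a, Ppp1r1b, Rgs9, Penk, Pde10a and Rasd2. They were given by name and matched by symbol to their Ensembl identifiers, by a rule that uses no measured value, although earlier results of these data were known when the list was drawn up. All 8 were among the 53700 identifiers counted, and all 8 were among the 17626 genes tested. They were read in each animal to ask how much striatal transcript the dissected cortex carried and whether that amount differed between genotypes.

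Striatal projection neurons are the inhibitory output cells of the caudate and putamen, the nuclei that lie directly beneath the cortex. Those of the direct pathway carry the dopamine receptor D1 and those of the indirect pathway carry the dopamine receptor D2, an adenosine receptor and enkephalin. Both share a dense cAMP signalling machinery around the phosphatase inhibitor DARPP-32. Several of these genes are also transcribed by some neurons of the cortex itself, so a read of them in cortex does not by itself come from striatum.

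QuantSeq, a method that sequences the 3′ end of polyadenylated RNA, was applied to cerebral cortex of 11 female mice aged 8 months, and each library came from 1 animal. There were 6 Abi3+/+ and 5 Abi3-/- mice, and all 11 carried 5xFAD, human transgenes bearing mutations of familial Alzheimer's disease and driven by the neuronal Thy1 promoter. The strain label was C57BL/6 for every animal, although the methods trace the 5xFAD line to a B6SJL background and the Abi3 null allele, a deletion of the gene in every cell, to C57BL/6N. By the methods the mice were also heterozygous for a Trem2 variant of SJL origin. The brains were perfused, and the right hemisphere was divided into cortex and hippocampus, with no mention of how the striatum was parted from the cortex. No mice without 5xFAD were in the comparison.

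Libraries held 3202310 to 5501958 reads in genes. A count of 3, taken as the smallest that can be told from none, equalled 2.01 to 3.58 normalized counts (reads divided by each library's size factor, which corrects for depth), and every member stood above it in every animal. This floor covers counting error only. Abi3 itself had 10 to 38 reads in the Abi3+/+ animals, no read in 4 of 5 Abi3-/- animals and 2 reads in Abi3-/- replicate 2. The counts of Abi3 did not overlap between the labelled genotypes. Cortical excitatory markers such as Slc17a7, the vesicular glutamate transporter of cortical pyramidal cells, were present in all animals (533 to 786 normalized counts). Reads outside genes came to 59.3 to 68.8 per 100 reads in genes in Abi3+/+ and 49.8 to 62.5 in Abi3-/- animals, a measure that moved with genotype. With it as a covariate in DESeq2, 0 of the 8 members passed, where only 3 of all tested genes did. The median log2 fold change of the members was then -0.28. In bulk tissue fewer cells of a type and less RNA per cell cannot be told apart, and p-values measure the spread between these animals.

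A difference between genotypes was not detected for any of the 8 striatal genes. In the DESeq2 fit 0 of 8 passed an adjusted p of 0.05. Of all tested genes 0.539% passed (95 of 17626), and 0.199% in the lower direction (35 genes). DESeq2 gave an adjusted p to only 6 of the 8 members and 6487 of the 17626 genes, and the rest could not pass. Abi3 itself, with a log2 fold change of -5.42, was given no adjusted p and so did not pass in this fit. At an unadjusted p under 0.05 the count of members was again 0 of 8, against 8.58% of all genes. With edgeR and limma it was 2 of 8 each, against 8.59% and 8.28% of all genes. The genotypes overlapped for all 8 members, and did not overlap for 1.04% of tested genes. All 8 log2 fold changes had a negative sign, with a median of -0.18 and a range of -0.59 to -0.06, where 50.5% of all tested genes had a negative sign and the median over all genes was -0.00334. The 8 values come from the same animals and are not 8 independent readings.

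**Figure D1:**
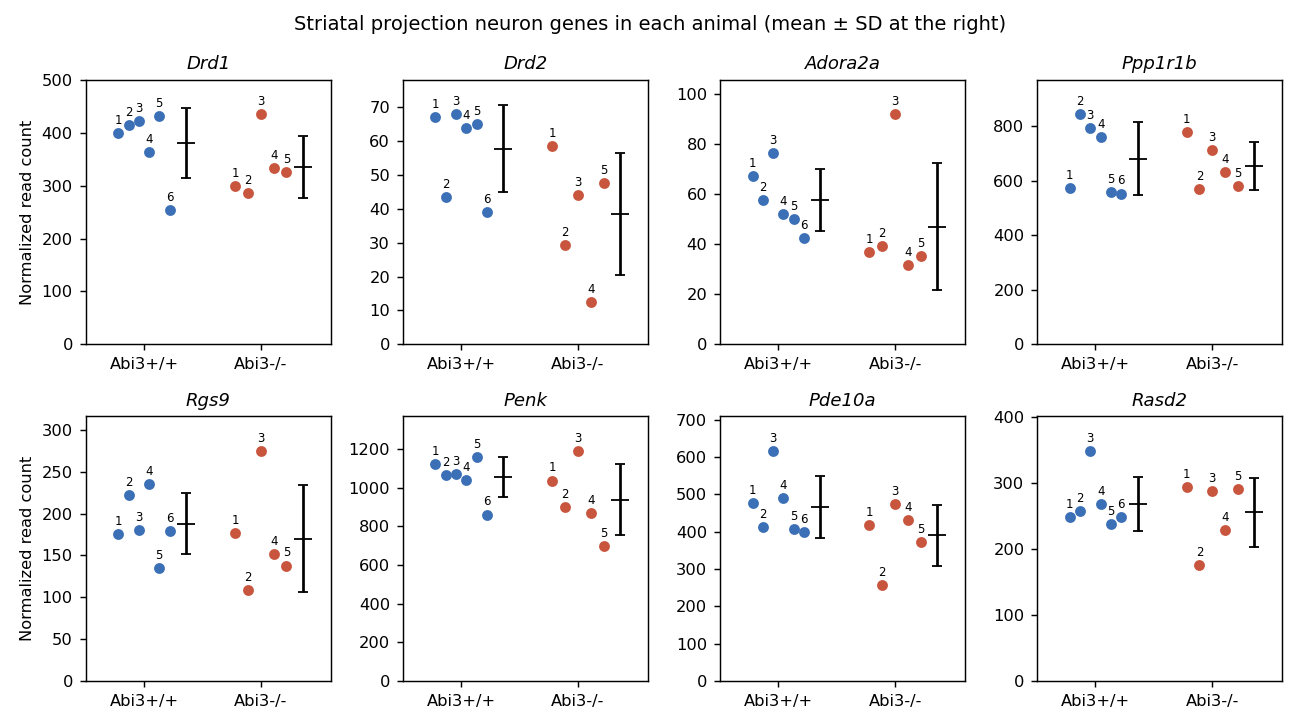
Normalized read count (vertical axis, linear, from 0) of each of the 8 genes in every animal, with Abi3+/+ in blue, Abi3-/- in red, the replicate number above each point and a bar for the mean ± SD of each group (n = 6 and 5). The groups overlap in every panel, and Abi3-/- replicate 3 is the highest of all 11 animals for Drd1, Adora2a, Rgs9 and Penk.

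Among direct pathway genes, Drd1 encodes the D1 receptor, which couples to stimulatory G proteins and raises cAMP. Drd1 (chromosome 13, 54204872 to 54209760, minus strand, GRCm39) had normalized counts of 255 at the lowest, 407 at the median and 433 at the highest in Abi3+/+ animals. In Abi3-/- replicates 1 to 5 it had 299.9, 287, 436, 334 and 327 normalized counts. The lowest animal of all was Abi3+/+ replicate 6 and the highest was Abi3-/- replicate 3, so that both extremes lay against the difference in means, and the groups overlapped. The group means of Drd1 were 382 ± 66.6 (SD, n = 6) and 337 ± 58.6 (SD, n = 5) normalized counts, with a log2 fold change of -0.18 (SE 0.135, 95% interval -0.45 to 0.08, DESeq2 adjusted p = 0.616). An exact permutation test, which went through all 462 ways to divide the animals, two-sided and with a smallest possible p of 0.00216, gave p = 0.299 for Drd1.

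Of the indirect pathway genes, Drd2 encodes the D2 receptor, which couples to inhibitory G proteins. Drd2 (chromosome 9, 49251654 to 49319477, plus strand) had 39.1, 64.5 and 68.0 normalized counts as its lowest, median and highest values in Abi3+/+ animals. The Abi3-/- animals, replicates 1 to 5 in turn, had 58.7, 29.3, 44.2, 12.4 and 47.8 normalized counts of Drd2. Abi3-/- replicate 4 stood lowest with 11 reads, and 3 of the 5 Abi3-/- animals lay within the Abi3+/+ range. The means of 57.8 ± 13.0 (SD, n = 6) and 38.5 ± 18.0 (SD, n = 5) gave the most negative log2 fold change of the members, -0.59 (SE 0.300, 95% interval -1.17 to 0.00). The unadjusted DESeq2 p was 0.0509 and the exact permutation p was 0.0823. DESeq2 gave Drd2 no adjusted p, because its mean count was under the threshold of 70.4 that the tool set for itself. Without Abi3-/- replicate 4 the log2 fold change of Drd2 was -0.36.

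Adora2a encodes the adenosine receptor that stands opposite D2 on cAMP in the same cells. Adora2a (chromosome 10, 75152560 to 75170628, plus strand) had 42.3, 54.8 and 76.4 normalized counts as its lowest, median and highest values in Abi3+/+ animals. In Abi3-/- replicates 1 to 5 it had 36.7, 39.4, 91.9, 31.6 and 35.3 normalized counts. Of the Abi3-/- animals 4 lay below every Abi3+/+ animal, and replicate 3 lay above every one. The means were 57.6 ± 12.4 (SD, n = 6) and 47.0 ± 25.3 (SD, n = 5), the log2 fold change was -0.30 (SE 0.280, 95% interval -0.85 to 0.25), the unadjusted DESeq2 p was 0.291 with no adjusted p, and the exact permutation p was 0.208. Without Abi3-/- replicate 3 the log2 fold change of Adora2a was -0.68, with an unadjusted DESeq2 p of 0.00746 and again no adjusted p.

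Penk encodes the precursor of the enkephalins, the opioid peptides of the indirect pathway, and is also made by cortical interneurons. Penk (chromosome 4, 4132722 to 4141856, minus strand) had 861, 1067 and 1159.6 normalized counts as its lowest, median and highest values in Abi3+/+ animals. Its normalized counts in Abi3-/- replicates 1 to 5 were 1037, 898, 1190.1, 867 and 699.9. The groups again overlapped, with Abi3-/- replicate 3 the highest and Abi3-/- replicate 5 the lowest of all. The means were 1053 ± 104 (SD, n = 6) and 938 ± 185 (SD, n = 5), and the log2 fold change was -0.17 (SE 0.108, 95% interval -0.38 to 0.04, DESeq2 adjusted p = 0.549, exact permutation p = 0.206).

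Among the signalling genes that both pathways share, Ppp1r1b encodes DARPP-32, which inhibits protein phosphatase 1 once protein kinase A has phosphorylated it. Ppp1r1b (chromosome 11, 98239169 to 98248624, plus strand) had 553, 668 and 844 normalized counts as its lowest, median and highest values in Abi3+/+ animals. In Abi3-/- replicates 1 to 5 it had 777, 569.7, 714, 631 and 580.4 normalized counts. The Abi3-/- values all fell inside the Abi3+/+ range, and the log2 fold change was -0.06 (SE 0.122, 95% interval -0.30 to 0.18, DESeq2 adjusted p = 0.905, exact permutation p = 0.773). That interval spans folds from 0.814 to 1.13. Ppp1r1b lies 2.51 Mb from Abi3 and Rgs9 lies 13.4 Mb from it on the same chromosome. The null allele was made in C57BL/6N, how far sequence of that origin extends around it was not measured here, and its part in these values was not tested.

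Rgs9 encodes a regulator of G protein signalling whose brain form shortens D2 receptor signalling. Rgs9 (chromosome 11, 109116158 to 109189025, minus strand) had 135, 179 and 236 normalized counts as its lowest, median and highest values in Abi3+/+ animals. Rgs9 in Abi3-/- replicates 1 to 5 stood at 177, 109, 275, 152 and 138 normalized counts. Both the lowest and the highest of the 11 animals were Abi3-/-, replicates 2 and 3. The log2 fold change was -0.15 (SE 0.195, 95% interval -0.53 to 0.24, DESeq2 adjusted p = 0.825, exact permutation p = 0.435), and it was -0.38 without Abi3-/- replicate 3, -0.02 without Abi3-/- replicate 2 and -0.07 without Abi3+/+ replicate 4.

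Pde10a encodes the phosphodiesterase that breaks down cAMP and cGMP in projection neurons of both pathways. Pde10a (chromosome 17, 8744204 to 9205482, plus strand) had 398, 444 and 616 normalized counts as its lowest, median and highest values in Abi3+/+ animals. Normalized counts of Pde10a were 417, 257, 473, 430.3 and 371 in Abi3-/- replicates 1 to 5. Abi3-/- replicates 2 and 5 lay below every Abi3+/+ animal and the other three Abi3-/- animals lay among them. The means were 467 ± 82.9 (SD, n = 6) and 389.6 ± 82.7 (SD, n = 5), with a log2 fold change of -0.26 (SE 0.140, 95% interval -0.53 to 0.01, DESeq2 adjusted p = 0.455, exact permutation p = 0.167). The adjusted p of Pde10a was the smallest given to any member.

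Rasd2 encodes Rhes, a small GTPase enriched in striatum. Rasd2 (chromosome 8, 75940572 to 75950874, plus strand) had 237, 252 and 348 normalized counts as its lowest, median and highest values in Abi3+/+ animals. In Abi3-/- replicates 1 to 5 Rasd2 had 294, 175, 288, 228 and 290.2 normalized counts. The Abi3-/- animals included the lowest of all 11, replicate 2, and 3 that stood above 5 of the 6 Abi3+/+ animals. The log2 fold change of Rasd2 was -0.07 (SE 0.142, 95% interval -0.35 to 0.21, DESeq2 adjusted p = 0.902, exact permutation p = 0.619).

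**Figure D2:**
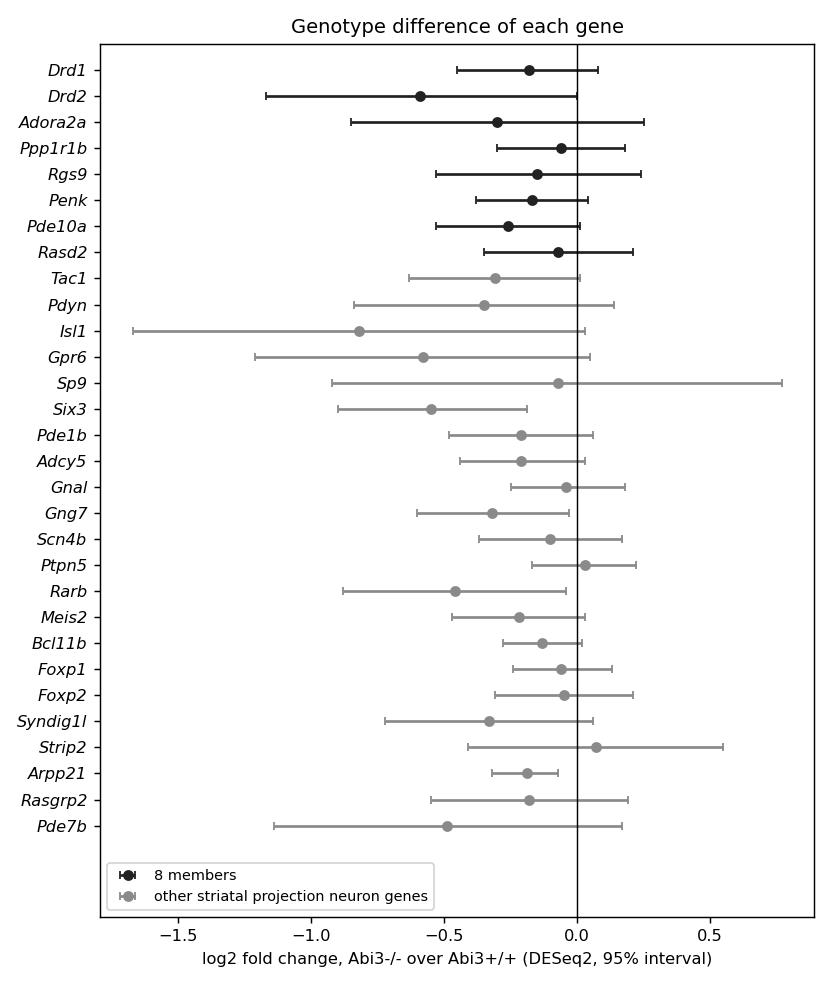
Log2 fold change of Abi3-/- over Abi3+/+ (horizontal axis) with its 95% interval from DESeq2 for the 8 members (black) and 22 of the 23 further striatal projection neuron genes tested (grey). Most points lie left of 0, and 26 of the 30 intervals include 0.

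Animals of the same genotype differed from each other. To place all 8 genes on a single scale, log2(normalized count + 1) of each was converted to a z-score over the 11 animals and averaged. The Abi3+/+ animals had a lowest, median and highest mean z-score of -0.62, 0.40 and 1.02. Abi3-/- replicates 1 to 5 had mean z-scores of 0.09, -1.31, 0.91, -0.80 and -0.64. The highest 2 animals were thus Abi3+/+ replicate 3 and Abi3-/- replicate 3, and the lowest was Abi3-/- replicate 2. The summed normalized count of the 8 genes ran from 2363 in Abi3-/- replicate 2 to 3576 in Abi3+/+ replicate 3. The ratio of the highest to the lowest animal was between 1.52 and 5.47 for single members, the largest being that of Drd2.

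Abi3-/- replicate 3 was the highest of the 11 animals for Drd1, Adora2a, Rgs9 and Penk. Abi3+/+ replicate 3 was the highest for Drd2, Pde10a and Rasd2, and Abi3+/+ replicate 2 for Ppp1r1b. Abi3-/- replicate 3 also had the highest summed count of 8 oligodendrocyte markers, 12280.4 against 8034 to 11663 in the other animals, and the part of white matter in its values was not tested. When that animal was left out, the median log2 fold change of the members was -0.32. In that fit 5 of 8 members had an unadjusted p under 0.05 (Drd1, Adora2a, Rgs9, Penk and Pde10a) against 8.75% of all genes, and 0 of 8 passed the adjusted threshold, with a smallest DESeq2 adjusted p of 0.199.

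**Figure D3:**
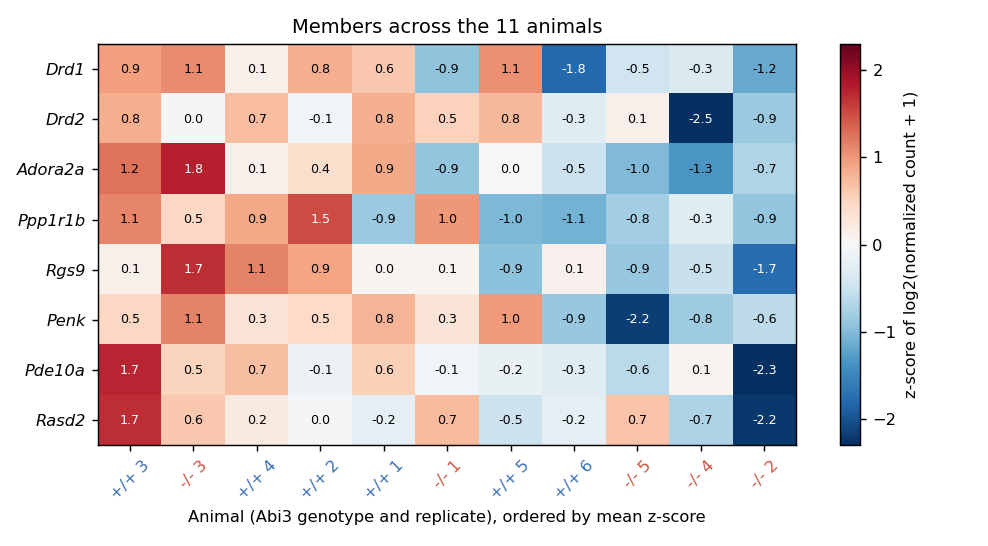
Z-score of log2(normalized count + 1) for each gene (rows) in each animal (columns, ordered by the mean over the 8 genes, from 1.02 at the left to -1.31 at the right). Red marks values above and blue values below the mean of the 11 animals, and the 3 columns at the right are Abi3-/- animals, while the other two Abi3-/- animals stand among the Abi3+/+ animals.

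The members tended to be high or low in the same animals. Over the 28 pairs of members and 11 animals, Pearson's r of log2(normalized count + 1) was above 0 in 28, between 0.18 and 0.81 with a median of 0.51. After Benjamini-Hochberg adjustment over the 28 pairs, 0 pairs passed 0.05 for r by permutation, 7 having an unadjusted p under it. By Spearman's rho 2 pairs passed. The first was Drd1 with Penk (rho = 0.87, permutation p = 0.00089, adjusted p = 0.0249; r = 0.69, permutation p = 0.017, adjusted p = 0.119). The other was Adora2a with Penk (rho = 0.82, permutation p = 0.00356, adjusted p = 0.0498; r = 0.74, permutation p = 0.00831, adjusted p = 0.0921). Without the 2 animals farthest from the median of the first gene, r was 0.67 for both of these pairs.

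With the genotype means removed, 28 of 28 pairs were still above 0 and the median r was 0.44, with 0 pairs past 0.05 after adjustment. The highest r, that of Pde10a with Rasd2 (r = 0.81, permutation p = 0.009, adjusted p = 0.0921; rho = 0.46, permutation p = 0.155, adjusted p = 0.241), rested on the animals at the ends. It was -0.03 without the 2 farthest animals. Over all pairs, leaving out the 2 farthest animals gave a median r of 0.37, with 26 of 28 above 0 and the lowest at -0.27. All genes of an animal share its library and its size factor.

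A further 24 genes of striatal projection neurons were read as a list. Of these 23 were tested, since Chrm4 had 5 reads over all animals. No gene passed the threshold, and 17 of the 23 were given an adjusted p. The log2 fold change was negative in 21 and positive in 2 (Ptpn5 and Strip2), with a median of -0.21, where 50.5% of all tested genes were negative. An unadjusted p under 0.05 was found for 4 (Arpp21, Six3, Gng7 and Rarb), against 8.58% of all tested genes. Arpp21, a cAMP-regulated phosphoprotein gene that cortex also expresses, had means of 2042 in Abi3+/+ and 1788 in Abi3-/- animals (log2 fold change -0.19, SE 0.0641, DESeq2 adjusted p = 0.106).

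The other abundant genes of the list were the transcription factor genes Foxp1 (log2 fold change -0.06, DESeq2 adjusted p = 0.877), Bcl11b (-0.13, adjusted p = 0.505) and Meis2 (-0.22, adjusted p = 0.50). Six3, a transcription factor gene of the striatal lineage, ran from 114 to 219 normalized counts in Abi3+/+ and from 97.9 to 138 in Abi3-/- animals (log2 fold change -0.55, DESeq2 adjusted p = 0.106). Tac1, the substance P precursor gene of the direct pathway, had 181, 206, 358, 351 and 183 normalized counts in Abi3-/- replicates 1 to 5 against 302 to 339 in Abi3+/+ animals. Thus 3 Abi3-/- animals lay below and 2 above the whole Abi3+/+ range, and the log2 fold change was -0.31 (DESeq2 adjusted p = 0.445). Pdyn, the dynorphin precursor gene, was lowest in Abi3-/- replicates 5 and 2 with 46.7 and 53.5 normalized counts and highest in Abi3-/- replicate 3, with Abi3+/+ replicate 2 next at the same rounded value of 154. The summed normalized count of the list was highest in Abi3+/+ replicate 3 (10759.6) and lowest in Abi3-/- replicate 2 (7151), the same animals that were highest and lowest for the sum of the 8 members.

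The receptors and the cAMP cascade that these neurons share with other cells formed another list. Of its 20 genes 19 were tested, Drd3 having no read, and 0 passed the threshold. Their log2 fold changes were negative in 8 and positive in 11, with a median of 0.01. At an unadjusted p under 0.05 there were 5, against 8.58% of all tested genes. Of these Oprk1, the kappa opioid receptor gene, was negative (-0.45). Prkacb (0.20), Prkar1b (0.23), Ppp3ca (0.15) and Gnai1 (0.20), genes of protein kinase A subunits, calcineurin and an inhibitory G protein, were positive. The abundant genes of the list were Ppp3ca (DESeq2 adjusted p = 0.353), Gnas (log2 fold change 0.00, adjusted p = 0.984), the stimulatory G protein gene, Rgs7bp (0.12, adjusted p = 0.647), whose product anchors Rgs9 family proteins, and Prkar1b (adjusted p = 0.137).

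Lists of other cells and regions were read beside these, and the only gene of them past the threshold was Cldn11 of oligodendrocytes. Of 10 cortical excitatory markers 0 passed, 8 were positive and the median log2 fold change was 0.13, with Slc17a7 at 0.12, Rasgrf2 at -0.06, Rorb at 0.19 and Neurod2 at 0.30. Of 10 GABAergic markers 0 passed and 7 were negative, with Gad1 at -0.09, Gad2 at -0.18, Slc32a1 at -0.25 and Sst at 0.02. Dlx6os1, an RNA of the forebrain GABAergic lineage, was the member of that list whose groups did not overlap, at 42.6 to 69.6 normalized counts in Abi3+/+ and 21.2 to 42.1 in Abi3-/- animals (log2 fold change -0.71, unadjusted DESeq2 p = 0.00422, no adjusted p, exact permutation p = 0.00216). Striatal projection neurons are themselves GABAergic, so this list and the members can share cells.

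Of 8 oligodendrocyte markers 1 passed and all 8 were positive, with a median of 0.24. Abundant ones were Mbp (0.03), Mobp (0.12) and Mal (0.32), and Cldn11, a tight junction gene of myelin, rose by 0.53 (SE 0.130, DESeq2 adjusted p = 0.0106). The summed oligodendrocyte count was 8034 to 11062 in Abi3+/+ and 8949 to 12280.4 in Abi3-/- animals, and its part in the members' values was not tested. No marker passed among 7 tested of thalamus (Slc17a6 0.33, Tcf7l2 -0.26, Ramp3 0.76, Prkcd -0.23), 7 of hippocampus (Prox1 0.32, Spata13 0.48, Fibcd1 -0.44, C1ql2 0.48) or 7 of cholinergic and dopaminergic neurons (Slc5a7 -0.31, Ddc 0.46, Chat -0.24, Lhx8 -0.64). DESeq2 gave an adjusted p to only 2, 1 and 0 genes of these lists in turn, and the rest could not pass. Ramp3 had an unadjusted DESeq2 p of 0.00676 and no adjusted p.

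Likewise none passed among 6 markers each of astrocytes (Slc1a2 -0.02, Slc1a3 -0.15, Gfap 0.24, Gja1 -0.09) and microglia (Cx3cr1 0.08, C1qa 0.47, Csf1r -0.05, P2ry12 0.06). Of the hippocampal markers Lct, Dsp and Tdo2 reached 0 in some animals of each genotype and at most 13.6 normalized counts in any.

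Of 6 choroid plexus markers 0 passed, with log2 fold changes of 0.48 for Ttr, -0.32 for Kcnj13, -0.68 for Clic6 and 0.07 for Kl. Only Ttr of these 6 was given an adjusted p. Ttr, which choroid plexus makes in large amounts, was at 1847 to 3447 normalized counts in 3 animals (Abi3+/+ replicate 4 and Abi3-/- replicates 1 and 5) and at 34.8 to 152 in the other 8. The mean z-scores of the 8 striatal genes in those 3 animals were 0.52, 0.09 and -0.64, within the range of the others. Without them 0 of 8 members passed the threshold and the median log2 fold change of the members was -0.12. In that fit Drd2 was at -0.98, with an unadjusted DESeq2 p of 0.00806 and no adjusted p. The value of Ttr rested on Abi3+/+ replicate 4, without which its log2 fold change was 3.65 and it passed (DESeq2 adjusted p = 0.0141).

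The mean z-score of the members was set beside the genes of each list. Pearson's r between each gene of a list and the mean z-score of the 8 members, over 11 animals, had a median of 0.65 for the further striatal projection neuron genes, and 18 of 23 were above 0.5. Over the 12902 genes whose normalized count averaged 10 or more the median was -0.00152 and 6.25% were above 0.5. With the genotype means removed the median of the striatal list was 0.56. The median r was 0.09 for the receptor and cAMP cascade list, 0.25 for cholinergic and dopaminergic markers, 0.20 for GABAergic markers and -0.14 for cortical excitatory markers. It was -0.19 for thalamus, -0.21 for hippocampus, 0.10 for choroid plexus, -0.03 for oligodendrocytes, 0.05 for astrocytes and -0.10 for microglia. These correlations are given as a description, without a test.

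**Figure D4:**
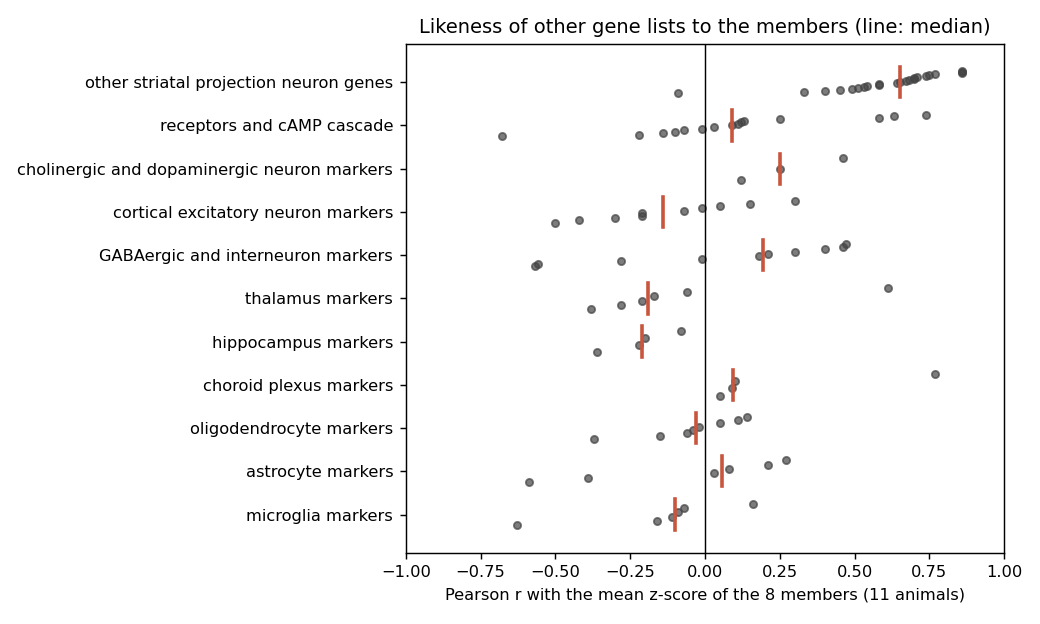
Pearson's r (horizontal axis) between each gene of 11 lists (rows, 1 point a gene, genes whose normalized count averaged 10 or more) and the mean z-score of the 8 members over the 11 animals, with a red line at each median. The further striatal projection neuron genes lie mostly at the right with a median of 0.65, and the medians of the other lists lie between -0.21 and 0.25.

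Of the 10 genes most like the members in this measure, with the members themselves left out, those reported here were Lrrc10b (r = 0.92), Ubash3b (0.88), Gm37895 (0.88), Ppp1r12c (0.87), Gm3294 (0.87), Meis2 (0.86), Gng7 (0.86), Ddx51 (0.86) and Gm44667 (0.85). Of these Meis2 and Gng7, a G protein subunit gene, belonged to the further striatal list. Lrrc10b ran from 81.8 to 248 normalized counts over the 11 animals, and its log2 fold change was -0.40 (DESeq2 adjusted p = 0.369).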

How the data were processed

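The authors trimmed adapter, poly(A) and poly(T) sequence, aligned single-end reads to GRCm39 with STAR (version 2.7.3a) and assigned reads to Ensembl genes by strand with HTSeq (version 0.9.1). What they deposited is a raw count for each gene and animal. No collapsing of PCR copies is stated, and as QuantSeq reads only 3′ ends, counts were not scaled by length and levels of different genes were not compared. Symbols and positions came from a more recent GENCODE annotation of the same build, which named 52610 of 53700 identifiers. Tallies of reads outside genes (49.8 to 68.8 per 100 in genes) were kept out of library sizes and gene tests, and served as a covariate in an alternative fit. Tallies of alignments that were not unique (317 to 397 per 100 reads in genes) were also kept out.

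Genotypes and replicate numbers came from the sample titles. DESeq2 (version 1.42.0, R version 4.3.3) was fitted to genotype, as in the study's methods, with a total count of at least 10 for the fit, a mean of at least 1.5 normalized counts for the results, and a threshold of 0.05 on the p-value after Benjamini-Hochberg adjustment over all genes. DESeq2 gives no adjusted p under a mean count it sets itself, and such genes were counted as not passed. Exact permutation tests and correlations used log2(normalized count + 1), and correlations used 100000 permutations. Libraries of a genotype differed by more than sampling noise (chi-square per degree of freedom of at least 4.53 for every pair). The scripts were tested on simulated data.

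The members and lists were chosen with earlier results of these data known. The rule for names covered the members, Abi3, the genes of each list past the threshold or among its 4 most abundant, and the 10 genes most like the members. Other genes were named after their values were seen, and some genes that the rule covers are not reported here. Alternatives were edgeR (version 4.0.16), limma (version 3.58.1; voom, weighted samples), size factors by TMM, either no filter or a mean of at least 10, independent filtering off, a replicate block, reads outside genes, as a share, added as covariate, CPM for the correlations, and leaving out each animal. The replicate block was fitted to replicates 1 to 5 of each genotype, without Abi3+/+ replicate 6. Leaving out the 3 animals with Ttr above 1000 normalized counts was chosen after seeing the data.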

Additional observations from a re-analysis of the deposited data

Results flagged for a closer look

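In 2 of the 16 sets of values examined (8 genes in 2 genotypes) the highest animal stood apart from the rest of its group by Dixon's criterion, where chance gives about 0.8. Adora2a was at 91.9 normalized counts in Abi3-/- replicate 3, and the nearest Abi3-/- animal was at 39.4. Rasd2 was at 348 normalized counts in Abi3+/+ replicate 3, and the nearest Abi3+/+ animal was at 268. Both animals were also the highest of their genotype in the mean z-score of the 8 genes, at 0.91 and 1.02.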

How the results depend on the processing

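None of the 8 members passed the threshold in any of the 20 alternatives. The number of members given an adjusted p ran from 4 (without Abi3+/+ replicate 2) to 8 (as with edgeR), and members without it could not pass. Over all genes, 95 passed, against 37 with edgeR, 20 with limma, 57 with independent filtering off, 33 with the replicate block, 3 with reads outside genes as covariate, 27 without the 3 animals with high Ttr, and 46 to 120 when 1 animal was left out. Cldn11 did not pass with limma, with that covariate, without the 3 animals with high Ttr or without Abi3+/+ replicate 2.

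The log2 fold change turned positive for Ppp1r1b without Abi3+/+ replicate 2 (0.01), for Rasd2 without Abi3+/+ replicate 3 (0.02) or Abi3-/- replicate 2 (0.04), and for Rgs9 with the covariate (0.07), under which Drd2 was at -1.59 (unadjusted p = 0.00338, DESeq2 adjusted p = 1.0). The cause was not tested. Leave-one-out ranges were -0.29 to -0.13 for Drd1, -0.79 to -0.36 for Drd2, -0.68 to -0.18 for Adora2a, -0.38 to -0.02 for Rgs9, -0.27 to -0.08 for Penk and -0.34 to -0.14 for Pde10a, and -0.32 to -0.14 for the median of the 8. The number of members with an exact permutation p under 0.05 was 0 in the full set and 0 to 1 with an animal left out, being Drd2 without Abi3+/+ replicate 6 (0.0397) or Abi3-/- replicate 1 (0.0333) and Adora2a without Abi3-/- replicate 3 (0.0143). The number of pairs passing for r was 0 to 2, the 2 being Drd1 with Penk and Pde10a with Rasd2 without Abi3-/- replicate 5.

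Replicate numbers were not taken to pair the animals, which were different mice. Same-numbered animals had correlations of -0.00485 to 0.0656, with a mean of 0.0184 against -0.00368 for other pairs across genotypes. With the replicate block, fitted without Abi3+/+ replicate 6, the median log2 fold change of the members was -0.26. In that fit 4 of 8 had an unadjusted p under 0.05 against 4.99% of all genes. With Abi3+/+ replicate 6 left out and no block, the median was -0.25, and 4 of 8 were under 0.05 against 7.38% of all genes. Among list genes that had not passed, Arpp21 passed without Abi3+/+ replicate 2 (-0.22, DESeq2 adjusted p = 0.0274) and Six3 without Abi3+/+ replicate 4 (-0.63, adjusted p = 0.0306). In the positive direction, Neurod2 (0.38, adjusted p = 0.0383) and Prkar1b (0.27, adjusted p = 0.034) passed without Abi3+/+ replicate 2. Prkar1b also passed without Abi3-/- replicate 4 (0.3, adjusted p = 0.016). C1qa passed without Abi3+/+ replicate 1 (0.56, adjusted p = 0.0163) or Abi3-/- replicate 3 (0.53, adjusted p = 0.0434). Among the 8 members, Drd2 (11 to 90 reads a library) and Adora2a (28 to 86 reads) had the fewest reads, a limit of depth.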
